A study of Mus musculus with 2 samples.

Results

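Sox9, Sox5 and Sox6, the 3 transcription factor genes known as the Sox trio of chondrogenesis, were followed in RNA of embryonic mouse tongue. They were taken from the deposited tables by gene symbol, as 3 of 22072 symbols, with 1 transcript row for Sox9, 2 for Sox5 and 3 for Sox6. Tongues were collected at embryonic day 12 from mice of mixed background. The control genotype was Osr1f/+, with a floxed allele of Osr1 over a wild-type allele. The mutant genotype was Osr1f/-; Wnt1cre, with the same floxed allele over a null allele and a Cre transgene driven by Wnt1 sequences, which is active in the neural crest. Both groups thus carried a floxed allele, while the null allele and the transgene were given for the mutant alone. Osr1 encodes an odd-skipped zinc finger factor. RNA came from pools that the design text describes as 3 pairs of control and mutant samples, and there was 1 library per genotype. The 2 genotypes could therefore not be compared by a test, and each ratio below is that of 1 mutant library over 1 control library. From the deposited coverage, the libraries were estimated to hold about 18900000 control and 23100000 mutant reads, so the mutant library was the deeper one.

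SOX9 is a SoxE protein that binds DNA through its HMG box, activates transcription and is required for mesenchymal cells to become chondrocytes. SOX5 and SOX6 are SoxD proteins. They have an HMG box and a coiled coil through which they pair, they lack an activation domain of their own, and they help SOX9 to act on cartilage enhancers such as those of Col2a1 and Acan. Tongue connective tissue comes from the cranial neural crest, which forms cartilage elsewhere in the face, while the tongue itself normally holds none. The trio is not limited to cartilage: Sox9 is also active in epithelia and glia, and Sox5 and Sox6 in neural crest derivatives, with Sox6 active in muscle and red cell precursors as well.

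The coding sequences show how the 3 genes relate. The best matching in-frame stretch of 237 bases between Sox9 and Sox5, and its counterpart in Sox6, fell in the part coding for the HMG box, and it is printed because it is what the 3 members share. Sequences are of GENCODE transcripts on GRCm38, 5′ to 3′, with capitals where all 3 genes have the same base.
Sox9, coding bases 301 to 537, chr11:112782885-112783914, plus strand: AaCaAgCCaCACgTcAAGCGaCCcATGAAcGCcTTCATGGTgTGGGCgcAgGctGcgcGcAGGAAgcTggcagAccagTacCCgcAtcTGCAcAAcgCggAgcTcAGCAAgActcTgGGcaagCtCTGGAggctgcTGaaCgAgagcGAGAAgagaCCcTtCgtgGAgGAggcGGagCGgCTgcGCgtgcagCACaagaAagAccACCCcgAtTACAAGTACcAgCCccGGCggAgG
Sox5, coding bases 1654 to 1890, chr6:143835294-143841291, minus strand: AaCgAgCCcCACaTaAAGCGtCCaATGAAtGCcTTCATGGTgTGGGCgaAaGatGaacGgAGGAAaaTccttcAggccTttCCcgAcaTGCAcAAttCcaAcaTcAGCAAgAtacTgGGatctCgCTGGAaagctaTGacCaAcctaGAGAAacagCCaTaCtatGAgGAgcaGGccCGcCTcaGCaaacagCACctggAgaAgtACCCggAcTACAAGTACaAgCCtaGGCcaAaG
Sox6, coding bases 1846 to 2082, chr7:115486646-115489780, minus strand: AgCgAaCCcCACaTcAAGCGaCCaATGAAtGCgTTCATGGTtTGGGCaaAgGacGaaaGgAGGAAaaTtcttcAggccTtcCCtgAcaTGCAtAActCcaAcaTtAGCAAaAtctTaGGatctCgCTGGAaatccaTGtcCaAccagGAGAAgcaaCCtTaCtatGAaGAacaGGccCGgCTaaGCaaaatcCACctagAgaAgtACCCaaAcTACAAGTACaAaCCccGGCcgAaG
All 3 genes had the same base at 127 of the 237 positions (53.6%). Sox5 and Sox6 matched at 195 positions (82.3%), Sox9 and Sox5 at 148 (62.4%) and Sox9 and Sox6 at 138 (58.2%). Over the whole coding sequence, Sox5 and Sox6 were identical at 68.0% of 2219 aligned bases. The Sox9 coding sequence has 507 codons and its stretch lies near codons 101 to 179, toward the start of the protein. In Sox5 (763 codons) and Sox6 (827 codons) the stretch lies at codons 552 to 630 and 616 to 694, toward the end.

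All 3 genes were higher in the mutant library. The unit was FPKM (fragments per kilobase of transcript and per 1000000 mapped fragments), summed over the transcript rows of a gene, and the 95% intervals come from estimated reads and cover counting error only. Sox9 (NM_011448, mm9 chromosome 11, 112643524 to 112649071) stood at 13.6 FPKM (12.8 to 14.5) in control tongue and at 23.1 FPKM (22.1 to 24.0) in mutant tongue. The intervals of the 2 libraries did not overlap, and the ratio was 1.69 (1.57 to 1.82), from about 1067 and 2209 reads. In absolute terms Sox9 was 9.42 FPKM higher. Sox5 (chromosome 6, 143781349 to 144158078) had 2.28 FPKM (1.91 to 2.73) and 3.73 FPKM (3.28 to 4.22). Its intervals did not overlap either, and the ratio was 1.63 (1.30 to 2.02) from about 126 and 250 reads. Sox6 (chromosome 7, 122614858 to 123182258) had 2.23 FPKM (2.00 to 2.48) and 2.78 FPKM (2.55 to 3.03). Its intervals lay next to each other without overlap, and the ratio was 1.245 (1.08 to 1.42) from about 345 and 522 reads. In whole-tissue RNA, more cells that express a gene and more RNA per cell cannot be told apart.

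**Figure D1:**
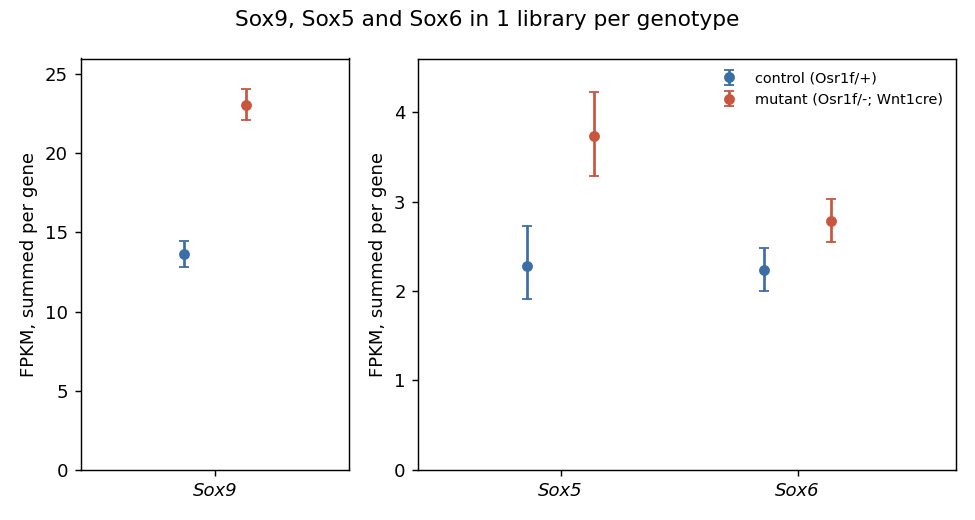
FPKM of Sox9 (left) and of Sox5 and Sox6 (right, with an axis of its own) in the control and the mutant library, with points for the value of 1 library each and bars for the 95% counting interval. Sox9 went from 13.6 to 23.1, Sox5 from 2.28 to 3.73 and Sox6 from 2.23 to 2.78 FPKM.

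The ratio of Sox9 was higher than that of Sox6 by more than counting error, since the intervals of 1.57 to 1.82 and 1.08 to 1.42 did not overlap. The interval of Sox5 overlapped both of the others, so at its depth Sox5 could not be placed apart from either. Sox9 was the most abundant of the trio throughout. Its FPKM was 5.97 times that of Sox5 and 6.10 times that of Sox6 in control tongue, and 6.18 and 8.29 times in mutant tongue. Sox5 and Sox6 stood at nearly the same level in the control, with overlapping intervals, and Sox5 stood above Sox6 in the mutant library, where the intervals did not overlap. Of the summed FPKM of the trio, Sox9 held 75.1% in control and 78.0% in mutant tongue.

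Against all genes, the 3 ratios ranked differently. Of 12383 measured genes, meaning those of at least 1 FPKM in either library with usable status, 51.2% had a ratio above 1 and 1.9% were at least 1.5-fold higher, while 4.13% had a ratio of 0.8 or less. Sox9 and Sox5 were past 1.5-fold and Sox6 was not. The ratio was exceeded by 133 genes for Sox9 (1.07%), by 158 for Sox5 (1.28%) and by 723 for Sox6 (5.84%). Low genes scatter more: among the 8970 genes of at least 5 FPKM, a group that Sox9 is in and Sox5 and Sox6 are not, 49.9% had a ratio above 1 and 50.1% below it, 2.32% were higher by 25% or more and 1.54% had a ratio of 0.8 or less. Past 1.5-fold were 0.58% of that group, and 29 of its genes had a ratio above that of Sox9. The counting interval lay above 1 for all 3 members and for 10.7% of measured genes, and below 1 for 10.2%.

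**Figure D2:**
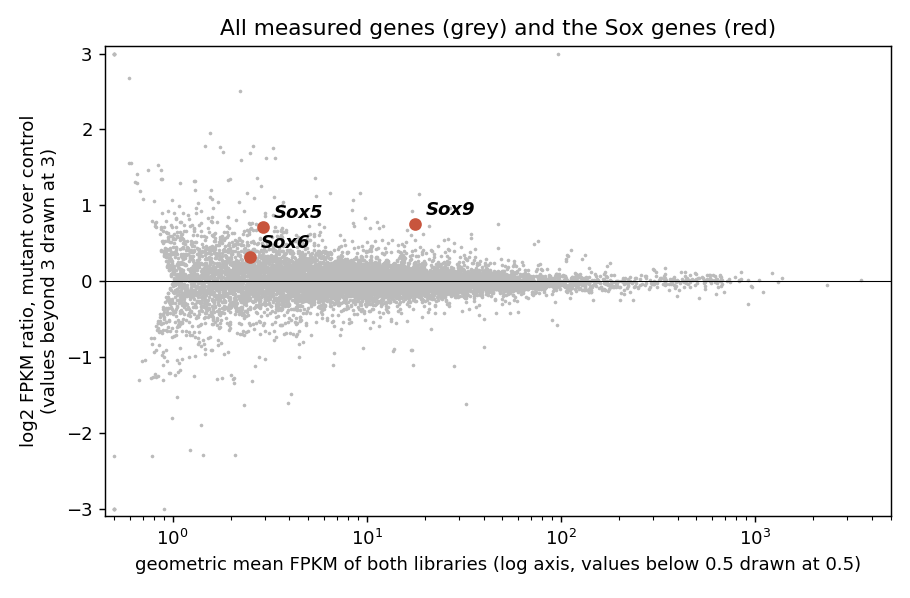
The log2 FPKM ratio of mutant over control (vertical) against the geometric mean FPKM of the 2 libraries (horizontal, log axis) for the 12329 measured genes above 0 in both, with each grey point a gene and the trio in red. Sox9, at a log2 ratio of 0.76, lies above nearly all genes of its level, while Sox5 (0.71) and Sox6 (0.32) lie where the spread of all genes is wider.

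The transcript rows behind these sums differed between the libraries, most of all for Sox6. For Sox6, the row NM_001025560 held 2.23 FPKM in control RNA and 0.000134 FPKM in mutant RNA. The row NM_001025559 went the other way, from 2.49e-05 to 2.02 FPKM, and NM_011445 went from 3.34e-06 to 0.764 FPKM. The control thus had over 99% of its Sox6 in NM_001025560, and the mutant library had 72.5% in NM_001025559 and 27.5% in NM_011445. For Sox5, NM_011444 held 2.28 and 3.28 FPKM, and NM_001113559 held 0.000508 and 0.453 FPKM, which was 12.2% of Sox5 in the mutant library. The main Sox5 row alone therefore had a ratio of 1.43, below the 1.63 of the sum.

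**Figure D3:**
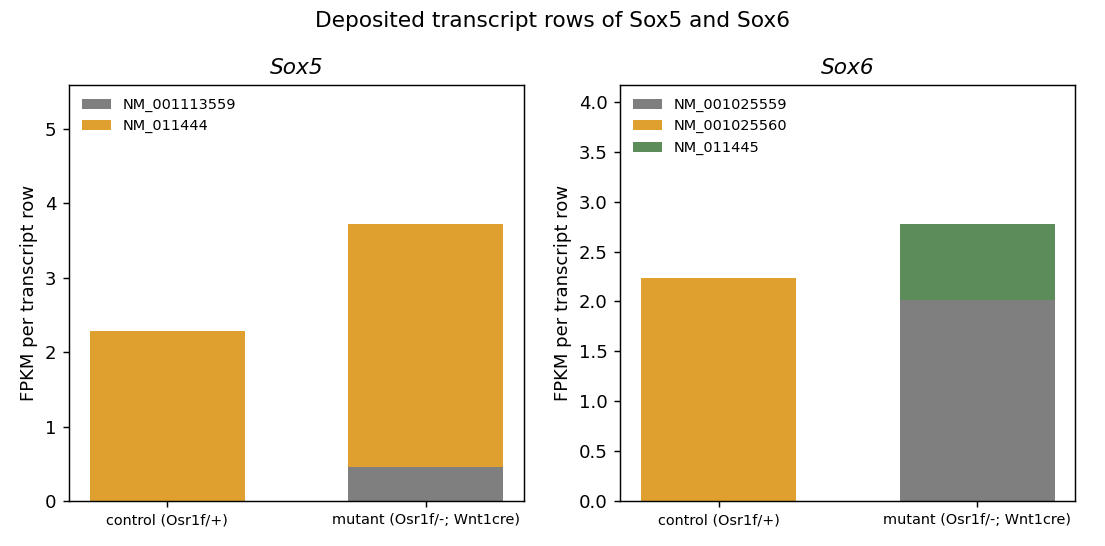
FPKM of each deposited transcript row of Sox5 (left) and Sox6 (right), stacked in bars for the control and the mutant library, with 1 library per bar. The Sox6 bar is NM_001025560 in the control and NM_001025559 with NM_011445 in the mutant library, while NM_011444 leads Sox5 in both.

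The Sox6 rows differ in few bases. The 3 Sox6 models, whose lengths of 8079, 8193 and 8227 nt are the same in GENCODE as in the deposited tables, share 8005 bases. Of the rest, 71 bases belong to NM_001025559 alone, 188 to NM_001025560 alone and 219 to NM_011445 alone. For Sox5 the GENCODE models, of 7243 nt for NM_011444 and 2526 nt for NM_001113559, do not have the lengths of the deposited rows, 2917 and 2770 nt, so only their coding parts are compared here. At the mean coverage of Sox6, the 188 bases of NM_001025560 would hold about 7.92 control reads and 12.1 mutant reads. The 71 bases of NM_001025559 would hold 2.99 and 4.56 reads. Such an exchange was rare but not particular to Sox6. Of 2650 measured genes with several rows, 343 (12.9%) had another leading row in the mutant library than in the control, and 17 (0.642%) went from above 99% of the gene to under 1% or the reverse. All 17 were below 5 FPKM in both libraries, as Sox6 is, and none of the 1996 genes of at least 5 FPKM did so. The 17 were 2.60% of the 654 genes with several rows below 5 FPKM, of which 129 (19.7%) had another leading row. The part that read assignment played was not tested, and the sum over rows is used for Sox5 and Sox6 everywhere else.

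The largest coding difference among the rows of each gene is an alternative exon, and it is printed for that reason. It does not separate the Sox6 rows NM_001025560 and NM_001025559, which both lack it and have coding lengths of 2355 and 2361 bases. In the GENCODE models NM_001113559 of Sox5 also has 3 coding bases that NM_011444 lacks. Capitals mark the exon and lower case the 15 coding bases on either side, on GRCm38, minus strand.
Sox5, 147 bases (49 codons) in NM_011444 and not in NM_001113559, chr6:143907387-143907533: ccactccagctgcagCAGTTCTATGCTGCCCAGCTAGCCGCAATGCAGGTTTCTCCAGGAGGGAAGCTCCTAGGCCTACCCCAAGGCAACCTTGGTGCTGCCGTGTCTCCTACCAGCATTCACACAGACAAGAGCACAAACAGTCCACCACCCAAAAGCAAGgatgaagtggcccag
Sox6, 123 bases (41 codons) in NM_011445 and not in NM_001025559 or NM_001025560, chr7:115579016-115579138: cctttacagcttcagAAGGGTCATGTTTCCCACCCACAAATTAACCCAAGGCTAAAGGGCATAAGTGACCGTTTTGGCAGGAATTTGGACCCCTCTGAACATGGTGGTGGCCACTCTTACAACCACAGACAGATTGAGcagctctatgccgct
At the mean coverage of its gene the Sox5 exon would hold about 6.33 control reads and 12.7 mutant reads, and the Sox6 exon 5.18 and 7.91 reads. Both exons lie before the HMG box stretch printed above.

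The 3 Sox6 rows also start at different places, so the bases before each start are shown beside the row values. The windows are from RefSeq (GRCm38.p6), which held entries for Sox5 and Sox6, and give the 250 bases before the start on the minus strand. Capitals mark ACAAAG or ACAATG on either strand, letters of the kind that Sox HMG boxes bind.
NM_001025559, chr7:116038745-116038994: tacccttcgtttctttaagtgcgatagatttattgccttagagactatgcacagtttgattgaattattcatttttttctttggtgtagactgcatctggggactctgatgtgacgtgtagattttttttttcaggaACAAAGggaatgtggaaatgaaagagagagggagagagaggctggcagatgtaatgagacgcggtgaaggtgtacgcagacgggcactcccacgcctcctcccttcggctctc
NM_001025560, chr7:116031048-116031297: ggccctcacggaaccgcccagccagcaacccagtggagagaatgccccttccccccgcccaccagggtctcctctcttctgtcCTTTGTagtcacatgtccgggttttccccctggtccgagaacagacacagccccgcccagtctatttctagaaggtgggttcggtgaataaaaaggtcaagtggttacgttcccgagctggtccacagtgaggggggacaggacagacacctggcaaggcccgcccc
NM_011445, chr7:115995087-115995336: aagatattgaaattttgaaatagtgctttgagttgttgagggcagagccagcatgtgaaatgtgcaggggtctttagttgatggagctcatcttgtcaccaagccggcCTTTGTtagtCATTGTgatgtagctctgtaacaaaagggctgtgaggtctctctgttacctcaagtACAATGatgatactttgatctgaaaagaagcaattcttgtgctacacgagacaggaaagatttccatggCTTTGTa
ACAAAG was found 1 time before NM_001025559, 1 time before NM_001025560 and 2 times before NM_011445. ACAATG was found 2 times before NM_011445 and not before the others. Of 32851 RefSeq windows of this length, 16.5% held ACAAAG and 10.7% held ACAATG on either strand, and the 2 motifs do not overlap in these windows. GCTACTG, from the motif of odd-skipped zinc fingers, was in none of the 3 windows and in 3.03% of all. The windows of NM_001025559 and NM_001025560 held 9 and 10 CG pairs and that of NM_011445 held 2, against a median of 6 over all windows.

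No other gene model overlaps the 3 genes in the tables, so their reads were not shared with another symbol. On mm9, the nearest models to Sox9 were BC006965, 70.9 kb below it, at 0.209 and 0.272 FPKM, and 2610035D17Rik, 256 kb above it, at 2.09 and 2.33 FPKM. The ratio of the latter was 1.12 (0.819 to 1.53), an interval that does not reach that of Sox9 and includes 1. Beside Sox5, Bcat1, an amino acid transaminase 784 kb above it, had a ratio of 0.896 (0.817 to 0.982). D6Ertd474e, 535 kb below Sox5, had no FPKM above 0 in control RNA and 0.0522 FPKM in mutant RNA. Beside Sox6, Insc, 621 kb below it, had 0.370 and 0.412 FPKM, and 1700003G18Rik, 43.0 kb above it, was at 0 in both.

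Among the 20 genes of the Sox family list (Sry included), 13 were measured. Of these, 9 had a ratio above 1, the trio among them, against 51.2% of all measured genes. Sox9 and Sox5 were the 2 of 13 that were higher by 25% or more, against 5.71% of all measured genes, and Sox6, with a ratio of 1.2452, lay just under that bound. The other 10 measured Sox genes, 6 higher and 4 lower, ran from 0.874 to 1.20, with a median of 1.02 beside 1.003 for all measured genes. Sox8, a SoxE relative of Sox9, stood at 9.29 FPKM in control tongue and 10.8 FPKM in mutant tongue, and its ratio was 1.16 (1.04 to 1.30). Sox10, the SoxE gene of neural crest and Schwann cells, had 4.51 and 3.94 FPKM, a ratio of 0.874 (0.727 to 1.05). Sox13, the third SoxD gene, had 3.16 and 2.87 FPKM, a ratio of 0.908 (0.752 to 1.10). The intervals of Sox9 did not meet those of its SoxE relatives, and the interval of Sox5 did not meet that of Sox13, while those of Sox6 and Sox13 overlapped.

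The SoxC genes, which act in many embryonic progenitors, were the most abundant Sox genes. Sox4 had 72.1 and 84.4 FPKM, a ratio of 1.17 (1.12 to 1.22), whereas Sox11 and Sox12 had ratios of 1.02 (0.995 to 1.05) and 1.02 (0.975 to 1.07). The SoxF genes of vessels did not share a direction, with ratios of 0.885 for Sox18, 1.20 for Sox7 and 1.03 for Sox17, whose intervals all included 1. Sox2, a SoxB1 gene of epithelial and neural progenitors, had a ratio of 0.972 (0.833 to 1.13), and its model overlaps the noncoding Sox2ot. The 7 remaining genes were under 1 FPKM in both libraries, the highest being Sox21 at 0.582 and 0.615 FPKM. In the order of control levels, Sox9 was the fourth Sox gene, and its interval met neither that of Sox12 above it nor that of Sox8 below it. Sox5 and Sox6 stood near the bottom, where the intervals of Sox7 and Sox5 and of Sox5 and Sox6 overlapped. In the mutant library Sox5 stood above Sox7 and Sox13, though its interval still overlapped that of Sox7 and also that of Sox10.

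**Figure D4:**
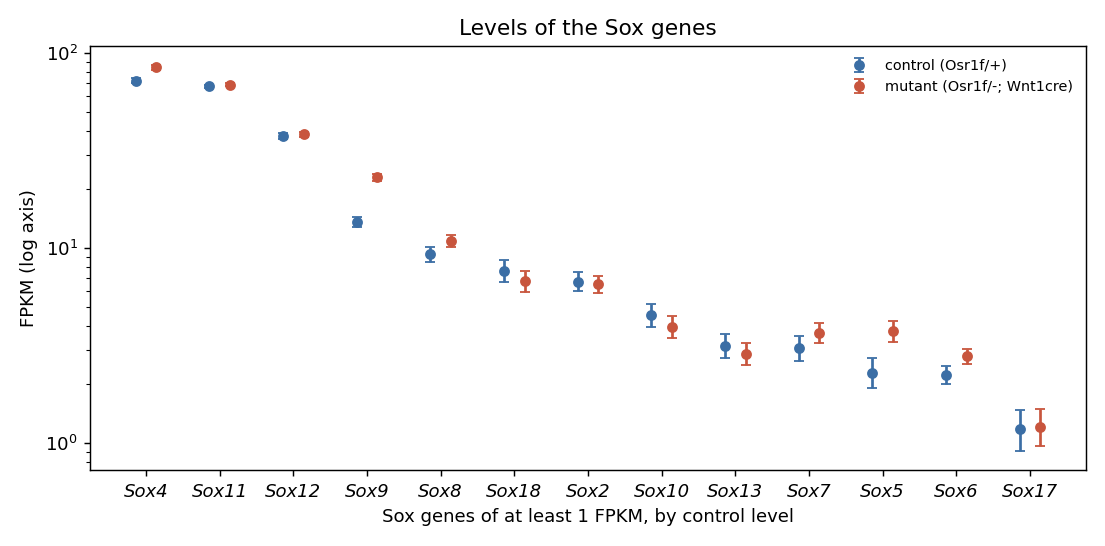
FPKM (log axis) of the 13 measured Sox genes in the control and mutant library, ordered by control level, with bars for the 95% counting interval of 1 library each. Sox9, Sox5, Sox6, Sox4 and Sox8 are the genes whose ratio had a counting interval above 1.

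The next values are of cartilage matrix genes known as targets of the trio, a list that was chosen with earlier results of these data known. Of 18 genes, 14 were measured, 14 of 14 had a ratio above 1 (51.2% of all measured genes) and 12 were higher by 25% or more (5.71%). Their median log2 ratio was 0.49, beside 0.0037 for all measured genes. Acan, Matn1 and Cytl1 reached 1 FPKM only in the mutant library and so had to count as higher. Of the 11 genes that reached 1 FPKM in the control, 11 were higher, 9 of them by 25% or more. Of all genes that reached 1 FPKM in the control, 50.3% were higher and 4.40% by 25% or more. Of the 4 genes under 1 FPKM in both libraries, Matn3, Comp and Chad had ratios of 1.67, 1.07 and 1.35 and Epyc 0.675, all with intervals that included 1.

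Among the collagens, Col2a1, the main cartilage collagen, had 98.4 and 131 FPKM, a ratio of 1.33 (1.29 to 1.36) that lay below the interval of Sox9. Col9a1, a collagen on the fibril surface, had 27.8 and 42.8 FPKM, a ratio of 1.54 (1.46 to 1.62) that overlapped it. Its partners Col9a2 and Col9a3 had 1.18 (1.11 to 1.248) and 1.45 (1.33 to 1.59), and the minor fibril collagens Col11a1 and Col11a2 had 1.30 (1.24 to 1.36) and 1.41 (1.247 to 1.604). Col27a1, another fibrillar collagen, had 1.10 (1.03 to 1.19). Matn4, a matrilin that links matrix fibrils, had the largest of the 14 ratios, 1.63 (1.44 to 1.84), from 9.13 to 14.9 FPKM. Acan, which encodes the proteoglycan aggrecan, had 0.811 and 1.22 FPKM, and Hapln1, which links it to hyaluronan, had 1.81 and 2.58 FPKM. Lect1, which encodes the cartilage protein chondromodulin, had a ratio of 1.39 (1.10 to 1.74), and Papss2, an enzyme that makes the sulphate donor for proteoglycans, had 1.32 (1.08 to 1.61). Matn1 and Cytl1 rested on few reads, with ratios of 1.58 (0.970 to 2.60) and 1.29 (0.655 to 2.56). Gene models of Col9a3, Col27a1 and Matn4 overlap other models.

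**Figure D5:**
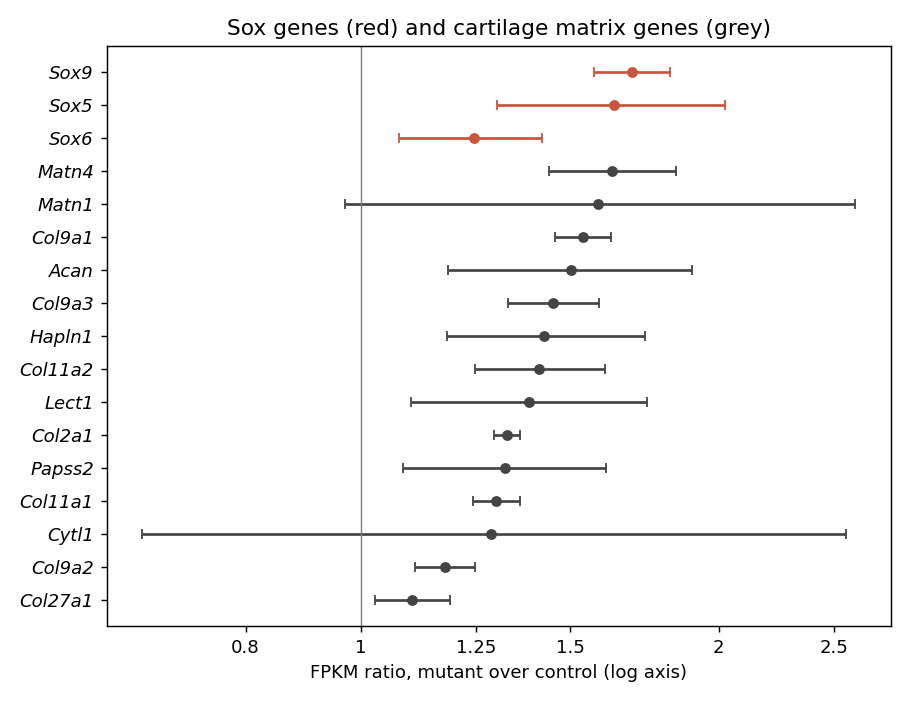
FPKM ratio of mutant over control (log axis) for the trio (red) and the 14 measured matrix genes (grey), with bars for the 95% counting interval and a line at 1. Among the matrix genes, the intervals of Matn1 and Cytl1 include 1, and that of Col2a1 (1.29 to 1.36) is the narrowest.

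Of 18 genes for proteins that bind or modify SOX9, 17 were measured, with 8 higher and 9 lower (51.2% of all measured genes were higher) and a median ratio of 0.996. The counting interval lay above 1 for 5 of the 17 and below 1 for 0, against 10.7% and 10.2% of all measured genes. The ratio was higher by 25% or more for 1 gene of 17, against 5.71% of all. That gene was Wwp2, a ubiquitin ligase that binds SOX9 and is itself active in cartilage, with 23.0 and 30.6 FPKM and a ratio of 1.33 (1.26 to 1.41), and its model overlaps that of Mir140. Smad3, a TGF-beta effector that joins SOX9 on its target genes, had 1.19 (1.13 to 1.252), and Med12, a Mediator subunit, had 1.10 (1.04 to 1.16). The coactivator gene Ppargc1a had 0.843 (0.657 to 1.08).

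Of 32 signals and factors known to act before Sox9, 30 were measured, with 15 higher and 15 lower and a median ratio of 1.002. The share that was higher was near the 51.2% of all measured genes. Counting intervals lay above 1 for 5 genes and below 1 for 5, against 10.7% and 10.2% of all measured genes. Higher by 25% or more were 4 of the 30, Gdf5, Bmp2, Tgfb3 and Pax1, against 5.71% of all. Gdf5, a joint and cartilage growth factor, stood at 0.775 and 1.27 FPKM with a ratio of 1.64 (1.07 to 2.54), and it reached 1 FPKM only in the mutant library. Bmp2 had 1.29 (1.07 to 1.57) and Tgfb3 1.28 (1.20 to 1.38), while the interval of Pax1, 0.970 to 1.68, included 1.

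Of the bone and perichondrium list, 7 of 11 genes were measured, 4 higher and 3 lower, beside 51.2% and 48.8% of all measured genes. The counting interval lay above 1 for 4 and below 1 for 1, against 10.7% and 10.2% of all measured genes. The list summed to 249 (control) and 233 FPKM (mutant). Most of this was Col1a1, at 216 and 195 FPKM, whose ratio of 0.901 (0.883 to 0.919) was the 1 with an interval below 1. Runx2, the regulator of osteoblasts that also acts in maturing cartilage, had 1.79 and 3.83 FPKM. Dlx5 and Dlx6, homeobox genes of the arches and early skeleton, had 1.62 and 3.63 FPKM and 0.827 and 2.06 FPKM, and Dlx6 reached 1 FPKM only in the mutant library. Runx2 and Dlx6 overlap other gene models. Col10a1, the mark of hypertrophic cartilage, was at 0.0345 and 0.0140 FPKM, and Sp7, an osteoblast factor, had a ratio of 0.956. Alpl, a phosphatase of mineralizing cells, had 0.803 (0.597 to 1.09).

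Other cell types that can express members of the trio were followed through marker lists, whose part in the results was not tested. Beside the counts of each list, 51.2% of all measured genes were higher and 48.8% lower. Genes of Schwann cells and neural crest summed to 74.6 (control) and 64.0 FPKM (mutant), with 2 higher and 7 lower of 9 measured of 13. Mbp, a myelin protein gene with 8 rows, had an FPKM ratio of 0.321, which lies below its interval from reads of 0.329 to 0.501. Cdh19 had 0.662 (0.441 to 0.989), and Fabp7 had 1.55 (0.913 to 2.63). Melanocyte genes summed to 8.09 and 7.66 FPKM, and 1 of 6 was measured, Kit at 0.928. The pigment genes Dct and Tyrp1 had 0.0215 and 0.0200 FPKM in the control, from about 1 read each. Both were listed at 0 in the mutant library, with ratio intervals that included 1. Among the other melanocyte genes under 1 FPKM, Tyr had 0.612 and 0.673 FPKM, Pmel 0.117 and 0.203 and Mitf 0.791 and 0.721. Epithelial genes summed to 155 and 137 FPKM, with 9 of 10 lower, such as Krt5 at 0.796. Erythroid genes summed to 1318 and 1074 FPKM, with 6 lower of 6 measured of 9, such as Slc4a1 at 0.747.

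Skeletal muscle genes, which also stand for the tissue label, summed to 660 and 683 FPKM with 4 higher and 7 lower of 11 measured of 12. The shares over all measured genes, 51.2% higher and 48.8% lower, stand beside this and the next counts. Myod1 was at 46.9 and 43.9 FPKM, and Pax3, a gene of muscle precursors and neural crest, had a ratio of 0.631 (0.503 to 0.770). Neuronal genes summed to 45.9 and 38.4 FPKM, with 3 higher and 5 lower of 8 measured of 10. Snap25 had the lowest ratio of that list, 0.0692, from 3.45 FPKM in the control. Endothelial and macrophage genes summed to 59.3 and 64.0 FPKM and to 15.3 and 17.0 FPKM, with 5 of 6 and 3 of 4 measured genes higher. Mesenchyme genes summed to 358 and 321 FPKM, with 4 higher and 6 lower of 10. Without Osr1, the targeted gene, the other 9 summed to 300.7 and 302.6 FPKM, with 4 higher and 5 lower, among them Hand1 at 0.758 and Foxf1a at 0.827. Osr1 itself was at 56.8 and 18.4 FPKM, in the direction of the labels, and its paralog Osr2 at 13.6 and 17.3 FPKM.

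The genes most like each member were found by level in both libraries, as the sum of the 2 absolute differences in log2 FPKM, over about 7540 genes of 1 row without an overlapping model. For Sox9 they were Unc5c, a netrin receptor gene, at 13.7 and 20.8 FPKM (distance 0.15), Ddx26b at 12.8 and 20.3 FPKM (0.28) and Adamts15, a matrix protease gene, at 15.8 and 24.3 FPKM (0.29). For Sox5 they were Ppp1r3c at 2.33 and 3.46 FPKM (0.14), Fmod, which encodes the proteoglycan fibromodulin, at 2.18 and 4.07 FPKM (0.19) and Galnt5 at 2.33 and 3.28 FPKM (0.21). For Sox6 they were Prkca, a protein kinase C gene, at 2.23 and 2.79 FPKM (0.0059), Cdh13, a cadherin gene, at 2.22 and 2.75 FPKM (0.029) and Zc3h8 at 2.28 and 2.82 FPKM (0.046). With 2 libraries, this likeness is a description of 2 values per gene.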

How the data were processed

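RNA was sequenced from 1 control and 1 mutant library. Alignment tools were TopHat 1.4.1 and Bowtie 0.12.7 on mm9, per the submitters' processing notes. The Cufflinks version and strand setting were not given in the sources used here. Per the file headers, the authors deposited FPKM per RefSeq transcript, and beside it a coverage signal that grows with depth.

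Rows of a symbol were summed (Python 3.11.15, pandas 2.3.3). A gene was measured if it had at least 1 FPKM in either library and the status OK in all its rows, and ratios are of plain FPKM. Coverage times length was taken in genes of 1 row and at least 1000 nt. The read length was not given, and a window of 30 to 70 bases was set by choice. The median of the products inside it, 47.4 bases, was taken as 1 read, on which all read counts and intervals rest. This gave about 18900000 control and 23100000 mutant reads, and from these, exact Poisson intervals of levels and exact conditional (Clopper-Pearson) 95% intervals of ratios (scipy 1.17.1). The ratio intervals were tried on simulated Poisson counts, which hold counting error alone, and the intervals of levels were not tried. Amplified reads are not independent molecules, so intervals cover counting error only. In genes of several rows the FPKM ratio and the ratio of reads can differ. A value of 3 reads on 1 kb was worth 0.159 FPKM (control) or 0.130 FPKM (mutant).

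The members and lists were chosen with earlier results of these data known. Named were the trio, every measured Sox and matrix gene, up to 4 measured genes of each other list by size of the log2 ratio, defining markers at 0, Osr1, Osr2, chromosomal neighbours and the 3 most alike genes. Named beyond this rule, after their values were seen, were Matn3, Comp, Chad, Epyc, Sox21, Pax1, Col10a1, Col1a1, Sp7, Myod1, Tyr, Pmel and Mitf. Symbols Tfap2a and Tfap2b are not analysed here, and values of some list genes are left out of the text. Alternatives were other pseudocounts, scales and filters.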

Additional observations from a re-analysis of the deposited data

How the results depend on the processing

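The ratio of Sox9 ran from 1.64 to 1.70 over 6 alternatives (pseudocounts of 1 and 0.1, TPM, the median ratio set to 1, quantile normalization and estimated reads), all within its counting interval. Some of these could hardly move it. Estimated reads return the same ratio for a gene of 1 row, and TPM and the median setting rescale all genes alike. The ratio of Sox5 ran from 1.43 to 1.64 over 7 alternatives and stayed within its interval. The ratio of Sox6 stayed within its interval in 6 of 7 alternatives. With only the leading control row in place of the sum it was 6.02e-05, as that row is nearly empty in the mutant library. Requiring 5 FPKM leaves fewer genes, of which 49.9% were higher and 2.32% by 25% or more. It gave 5 higher of 7 Sox genes (1 by 25% or more) and 9 higher of 9 matrix genes (7 by 25% or more). Of the list acting before Sox9, 1 gene of 23 was past 25%. With a pseudocount of 1 that last count was 2 of 30, against 3.23% of all measured genes. The same pseudocount left 8 of 14 matrix genes past 25%. With no level filter, among genes above 0 in both libraries, 14 of 18 matrix genes were past 25%, against 12.3% of all. Without genes that overlap another model, 0 of 14 SOX9 partner genes were past 25%, against 5.28% of all, since Wwp2 is left out. The other alternatives, among them 1 FPKM in the control alone, which was chosen after seeing the data, kept each count within 1.5 times its value. Setting the median ratio to 1 moves log2 ratios by 0.0037. No paired analysis was possible because there was 1 library per genotype. Depth limits Sox5, at about 126 reads in the control, more than Sox9.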
